A study of Mus musculus with 2 samples.

Results

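The glycolysis and hypoxia response genes are a set of 34 mouse genes, picked by symbol from the 27933 gene symbols counted in microglia of demyelinated white matter. They comprise 4 sugar and lactate transporters, 16 enzymes that carry glucose to lactate, 3 kinases that set the flux through the pathway, 5 regulators of the hypoxia response and 6 of its targets. Microglia are the resident macrophages of the brain. They were sorted from the corpus callosum, a white matter tract, of C57Bl6 mice with the genotype CX3CR1 that had been fed cuprizone for 4 weeks, an agent that kills oligodendrocytes and so removes myelin. The medial and the lateral corpus callosum each gave 1 single-cell RNA-seq library, all of it from treated mice. The sources used here do not give the CX3CR1 allele, the number of mice pooled or the gate of the sort, and no untreated library was analysed here.

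Cells were taken as barcodes with at least 2400 unique molecular identifiers (UMIs, each a tag of 1 captured transcript) and at most 10% of UMIs from mitochondrially encoded genes. This gave 2131 medial and 2308 lateral cells, with medians of 10732 and 9694 UMIs per cell, and 7 barcodes occurred in both libraries. The 7 microglial markers P2ry12, Tmem119, Csf1r, C1qa, Fcrls, Siglech and Cx3cr1 made up 128 of every 10000 medial and 128 of every 10000 lateral UMIs. Lists for 10 other cell types came to at most 1.14 of 10000 UMIs in either library, the highest being endothelial (1.14 medial, 0.981 lateral), of whose 5 markers Ly6c1 and Slco1a4 were at 0 in both. Astrocyte markers stood at 0.435 and 0.463 of 10000, with Aqp4 at 0. With 1 library per region there is no replicate check. Each interval in parentheses is a 95% interval that covers counting error only, and no test between regions was possible.

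Glycolysis splits glucose into pyruvate in the cytosol. Glucose enters through Glut transporters, is trapped by hexokinase and committed by phosphofructokinase, and pyruvate can be turned into lactate and exported. When oxygen is low, prolyl hydroxylases of the Egln family no longer mark Hif1a for destruction by Vhl, and Hif1a then switches on many glycolytic genes together with Vegfa, Bnip3 and Egln3. Macrophages raise glycolysis when activated, and Hif1a transcript levels say little of its protein, which is controlled by degradation. UMIs were counted from transcript 3' ends, so levels below are captured transcripts per 1000000 UMIs (CPM) and were not divided by length.

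Hif1 binds DNA at a short core that can read ACGTG. RefSeq promoter windows, which run from 250 bases before to 50 bases after the start, were at hand for 31 of the 34 genes, all but Slc2a3, Bnip3l and Ndrg1. ACGTG, on either strand and including the places where it lies inside CACGTG, was found in a window of 22 of these 31 genes (71.0%), against 21.8% of all 27025 genes with a window. It was present for 11 of 16 enzymes, 7 of 9 hypoxia regulators and targets, 3 of 3 transporters and 1 of 3 flux kinases. A gene can have several windows, and the members had more per gene than all genes. Counted by window, 54.3% of the members' 46 windows held ACGTG, against 19.6% of all 32851. The variant GCGTG, on either strand, occurred for 20 of the 31 genes (64.5%), against 35.2% of all genes. A match is a run of letters and not a bound site, and base composition was not matched. No ACGTG was found in any window of Eno1, Tpi1, Gpi1, Pfkl, Pfkp, Pfkfb4, Pdk1, Vhl and Adm. Stretches upstream of the RefSeq start are printed for 7 genes that appear in the results below, all of which carry ACGTG. They come from RefSeq's GRCm38.p6 windows, 5′ to 3′ along the gene's own strand, with ACGTG or its complement CACGT in capitals.
Slc16a3, chr11:120949025-120949066, plus strand: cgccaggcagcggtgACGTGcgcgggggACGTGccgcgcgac
Pgk1, chrX:106186935-106186988, plus strand: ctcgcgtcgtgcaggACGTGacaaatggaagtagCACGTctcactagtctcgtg
Pgam1, chr19:41911742-41911776, plus strand: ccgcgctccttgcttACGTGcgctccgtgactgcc
Ldha, chr7:46845644-46845789, plus strand: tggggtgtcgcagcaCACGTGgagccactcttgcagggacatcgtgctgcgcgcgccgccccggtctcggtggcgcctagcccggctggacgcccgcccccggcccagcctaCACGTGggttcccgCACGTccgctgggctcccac
Hif1a, chr12:73907717-73907816, plus strand: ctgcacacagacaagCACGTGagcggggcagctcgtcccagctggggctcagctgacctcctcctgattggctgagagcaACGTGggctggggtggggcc
Egln3, chr12:54204084-54204118, minus strand: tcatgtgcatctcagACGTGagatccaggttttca
Bnip3, chr7:138909594-138909629, minus strand: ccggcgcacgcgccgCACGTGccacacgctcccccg
Counting both strands, the Ldha stretch holds 5 matches in 146 bases, 4 of which pair up into CACGTG. The Hif1a stretch holds 3, Pgk1, Slc16a3 and Bnip3 hold 2 each, and Pgam1 and Egln3 hold 1 each. The other Ldha window, not printed, holds 0 matches. For Ldha, Hif1a and Slc16a3 the printed stretch lies inside the gene as placed by GENCODE M21, which begins at 46841475, 73901375 and 120948480. The window ends of Ldha, Pgam1 and Hif1a were not found near the start of the gene's own GENCODE transcripts.

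Medial and lateral microglia expressed the same members at similar levels. The 34 genes summed to 0.630% of medial and 0.707% of lateral UMIs, and the 16 enzymes alone to 0.535% and 0.604%. Of the 34, 31 had at least 30 UMIs over both libraries and are called measured here; Aldoc, Adm and Ndrg1 did not. Among the 31 measured members, 15 had a medial-over-lateral interval wholly under a ratio of 1, 1 had it wholly over, and 15 had an interval that held 1. Across all 11324 genes with at least 30 UMIs the shares were 16.3% lower and 10.5% higher, and among the 4672 genes with at least 1000 UMIs, where intervals are narrower, 28.5% and 15.6%. No measured member other than Pgk1 and Egln3 differed by 1.2-fold or more, against 10.6% of all genes that far higher and 10.1% that far lower, and 4.73% and 2.27% of those with at least 1000 UMIs. The members' median log2 ratio, medial over lateral, was -0.09, beside -0.03 for all genes.

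**Figure D1:**
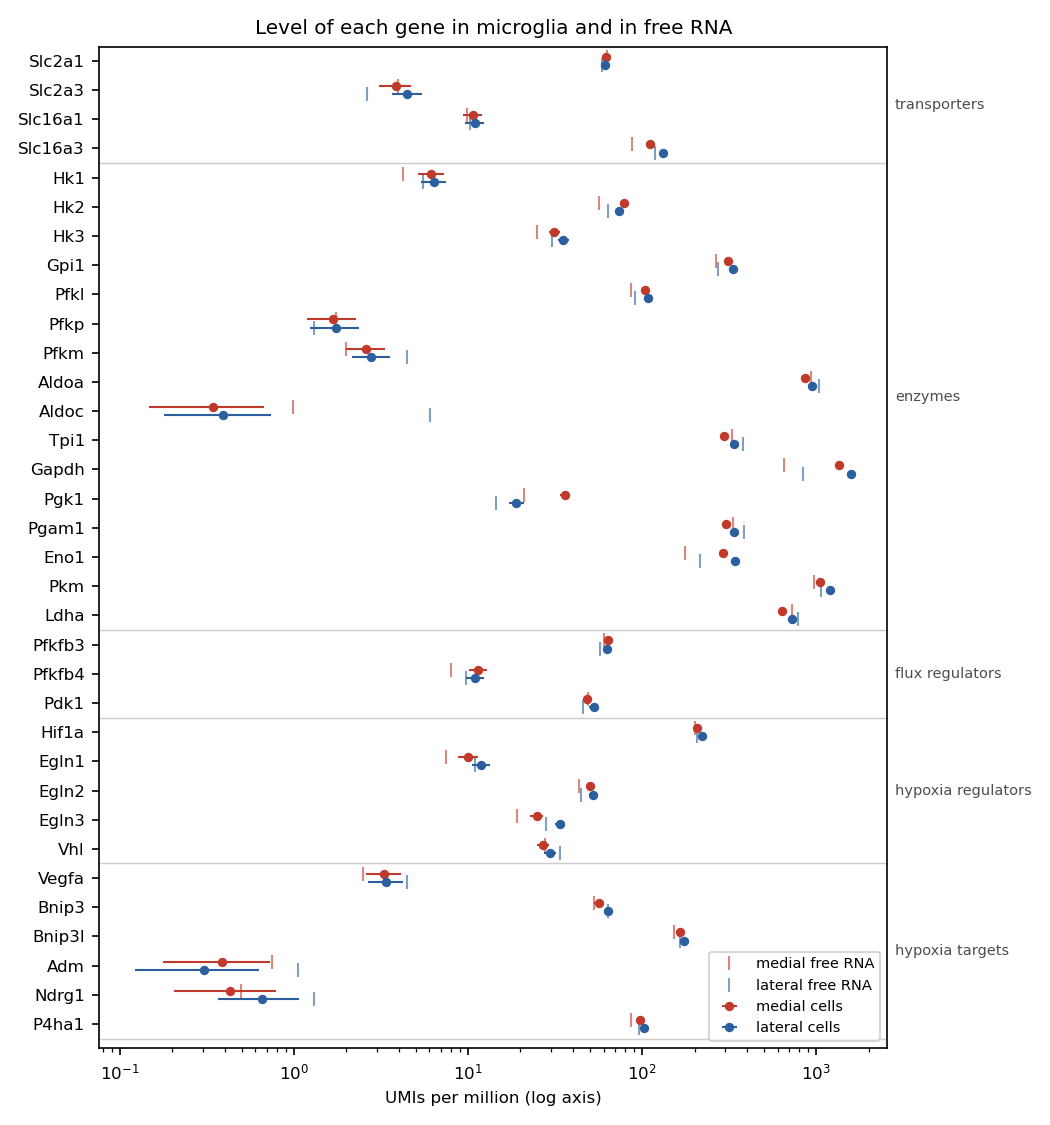
Level of each of the 34 genes in UMIs per 1000000 (CPM, log axis), by role. Dots are the cells of the medial (red) and lateral (blue) library with 95% counting intervals, and ticks are the free RNA of barcodes with 10 to 100 UMIs. Dots of both libraries lie close together for most genes, while Pgk1 is apart. Aldoc lies below its free RNA, which rests on 4 medial and 23 lateral UMIs.

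Of the 2 glucose transporters in the set, Slc2a1 had the higher count. Slc2a1, the Glut1 transporter, was at 61.8 CPM in medial and 61.2 CPM in lateral cells, a log2 ratio of 0.01 (-0.09 to 0.12), and its UMIs were found in 41.9% of medial and 38.9% of lateral cells. Slc2a3, the high-affinity Glut3, was at 3.84 and 4.47 CPM, in 4.04% and 4.25% of cells. The lactate exporter Slc16a3 (Mct4) was the most abundant of the transporters, at 111 CPM medial and 132 CPM lateral, a log2 ratio of -0.24 (-0.32 to -0.17). It is the only 1 of the 4 whose interval did not hold a ratio of 1. Slc16a1 (Mct1), which moves lactate both ways, was at 10.7 and 10.9 CPM, a log2 ratio of -0.04 (-0.29 to 0.22).

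Among enzymes of the first steps, 1 isoform led at each. For the hexokinases, which trap glucose, this was Hk2, at 78.4 CPM medial and 73.6 CPM lateral, a log2 ratio of 0.09 (-0.01 to 0.19). The myeloid form Hk3 was at 31.4 and 35.3 CPM, a log2 ratio of -0.17 (-0.32 to -0.03), and Hk1, abundant in neurons, at 6.14 and 6.38 CPM. Glucose phosphate isomerase, Gpi1, was at 310.3 and 331 CPM, a log2 ratio of -0.09 (-0.14 to -0.05). Of the phosphofructokinases, the liver form Pfkl was at 104 and 108 CPM, a log2 ratio of -0.05 (-0.14 to 0.03). The muscle form Pfkm was at 2.60 and 2.78 CPM and the platelet form Pfkp at 1.66 and 1.74 CPM. Of these 7 genes, 2 had an interval under a ratio of 1, beside 16.3% of all genes with at least 30 UMIs. The summed UMIs of the 7 had a log2 ratio of -0.06 (-0.10 to -0.03).

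The enzymes from aldolase to lactate dehydrogenase were lower in the medial library, with Pgk1 the exception. This split of the enzymes at aldolase was not among the planned results. Of the 8 measured genes of this stretch, 7 had an interval under a ratio of 1 and 1 over it, and the summed log2 ratio was -0.19 (-0.20 to -0.18). Among all genes with at least 1000 UMIs, 28.5% were under a ratio of 1 and 15.6% over it. Gapdh was at 1345 CPM medial and 1577 CPM lateral, a log2 ratio of -0.23 (-0.25 to -0.21). Enolase, Eno1, was at 291 and 343 CPM, a log2 ratio of -0.24 (-0.28 to -0.19), and pyruvate kinase, Pkm, at 1045 and 1202 CPM, a log2 ratio of -0.20 (-0.23 to -0.18). Ldha, which makes lactate, was at 637 and 722 CPM, a log2 ratio of -0.18 (-0.21 to -0.15). Triose phosphate isomerase, Tpi1, at 296 and 335 CPM, aldolase Aldoa, at 860 and 947 CPM, and Pgam1, at 302 and 336 CPM, had log2 ratios of -0.18, -0.14 and -0.15. These 7 genes thus lay between -0.24 and -0.14, a narrow band. Over all 15 measured enzymes the median was -0.14, and without Gapdh, left out only once the values were known, it was -0.12. Aldoc, the aldolase of astrocytes, had 8 medial and 9 lateral UMIs (0.341 and 0.390 CPM). In free RNA it was at 0.991 CPM medial, from 4 UMIs, too few to compare with the cells. The lateral free RNA gave 6.02 CPM from 23 UMIs, above the lateral cells.

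**Figure D2:**
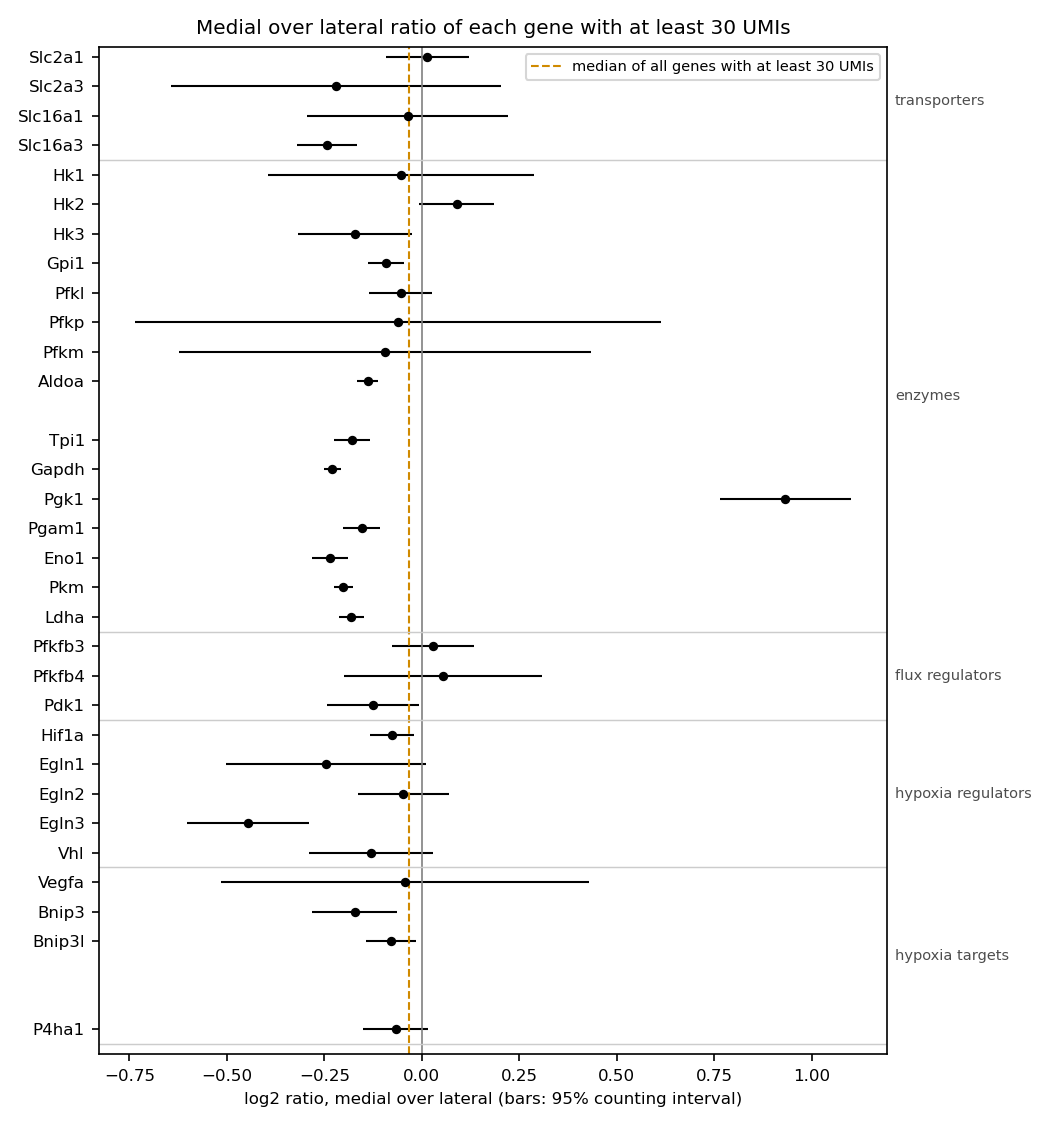
Log2 ratio of medial over lateral CPM for the 31 genes with at least 30 UMIs, by role, with 95% counting intervals. The dashed line is the median of all genes, -0.03. The enzymes from Aldoa to Ldha cluster between -0.24 and -0.14, while Pgk1 stands at 0.93 and Egln3 at -0.45.

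Pgk1, phosphoglycerate kinase, went the other way and by far more. It was at 36.2 CPM medial (848 UMIs) and 19.0 CPM lateral (437 UMIs), a log2 ratio of 0.93 (0.76 to 1.10), and in 30.03% and 16.2% of cells. Its level was also far under that of its neighbours in the pathway, Gapdh and Pgam1. The gene (ENSMUSG00000062070, chromosome X, 106187100 to 106203699, plus strand, GRCm38, protein coding) has a near-identical copy, Pgk1-rs7, in the same count table, at 4.52 and 3.21 CPM. Of the 57-nt windows in the last 500 nt of Pgk1 transcripts, 39.1% also occur in another counted gene, and for Pgk1-rs7 this is 100%. Reads from such windows cannot be placed on 1 gene, so the level of Pgk1 is uncertain. Of the other measured members, only Eno1 (37.6%), Gapdh (29.4%) and Aldoa (5.13%) shared over 1% of windows with another counted gene. The enolase copy Eno1b was at 20.7 and 18.4 CPM.

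Sharing of windows moved with the ratio across all genes. Of 8186 genes with at least 100 UMIs and no shared window, 1.11% were at least 1.5-fold higher and 0.647% at least 1.5-fold lower in the medial library. Of 314 genes with over 10 and up to 50% of windows shared, the range that holds Pgk1, 7.01% were that much higher and 0.637% lower. Of 24 genes with over 90% shared, 25% were higher and 4.17% lower. The part of shared sequence in the Pgk1 ratio was not tested. The sources used here do not say whether both libraries had the same read length and alignment settings, and this limits what the Pgk1 ratio shows.

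**Figure D3:**
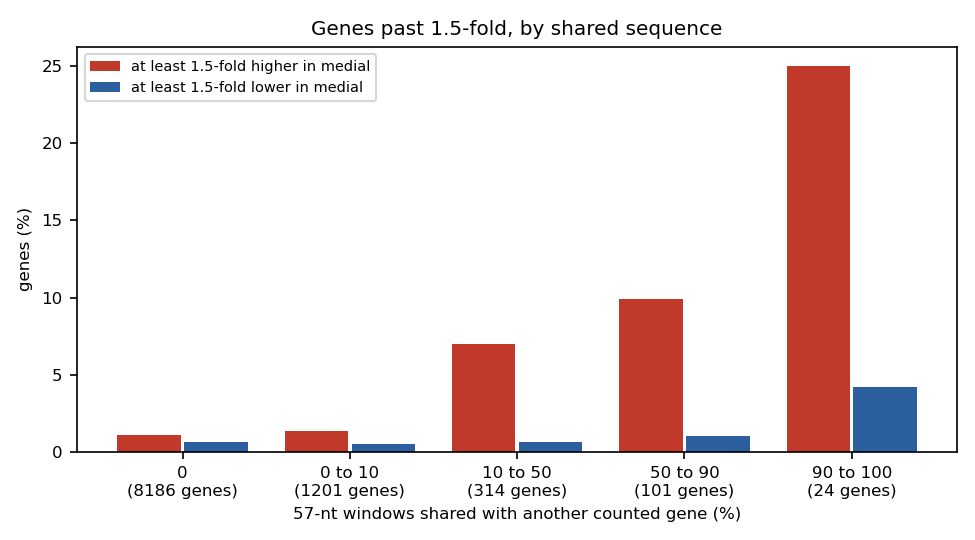
Share of genes with at least 100 UMIs that were at least 1.5-fold higher (red) or lower (blue) in the medial library, by the percentage of their 57-nt windows that another counted gene shares. The share of genes higher in medial goes from 1.11% with no shared window to 25% with over 90% shared, while the lower share stays under 5%.

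The kinases that tune the pathway were close to equal. Pfkfb3, which makes the activator of phosphofructokinase, was at 63.7 CPM medial and 62.5 CPM lateral, a log2 ratio of 0.03 (-0.08 to 0.13). Pfkfb4 was at 11.4 and 11.0 CPM. Pdk1, which keeps pyruvate out of mitochondria by blocking pyruvate dehydrogenase, was at 48.3 and 52.8 CPM, a log2 ratio of -0.13 (-0.24 to -0.01).

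Hypoxia regulators and targets leaned to the lateral library too, but by less than the 16 enzymes as a set. Of their 9 measured members, 4 had an interval under a ratio of 1, 0 had one over it and 5 held it. Over all genes with at least 30 UMIs 16.3% were under it, and 28.5% of those with at least 1000. The median of the 9 was -0.08, beside -0.14 for the enzymes and -0.03 for all genes. Their summed log2 ratio was -0.10 (-0.14 to -0.07), against -0.18 (-0.19 to -0.16) for all 16 enzymes. The enzymes were also split at aldolase, which was not planned. Those from aldolase on summed to -0.19 (-0.20 to -0.18). Enzymes of the first steps, at -0.06 (-0.10 to -0.03), were nearer to 0 than the hypoxia genes. These intervals cover counting error only, and the difference between the lists was not tested. Hif1a was the most abundant regulator, at 208 CPM medial and 219 CPM lateral, in 80.5% and 81.7% of cells, a log2 ratio of -0.08 (-0.13 to -0.02). Egln3, a prolyl hydroxylase that Hif1a itself induces, had the lowest ratio of all 31 measured members, at 24.8 and 33.8 CPM, a log2 ratio of -0.45 (-0.60 to -0.29), and was found in 20.8% and 24.4% of cells. The other hydroxylases Egln2, at 50.4 and 52.1 CPM, and Egln1, at 10.02 and 11.9 CPM, had intervals that held a ratio of 1, as did Vhl, at 27.0 and 29.5 CPM.

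The 4 measured targets had log2 ratios from -0.17 to -0.04, and 2 of their intervals lay under a ratio of 1, beside 16.3% of all genes. Bnip3, which marks mitochondria for removal, was at 56.2 CPM medial and 63.3 CPM lateral, a log2 ratio of -0.17 (-0.28 to -0.06). Its relative Bnip3l was at 165 and 175 CPM, a log2 ratio of -0.08 (-0.14 to -0.02), and the collagen prolyl hydroxylase P4ha1 at 97.5 and 102 CPM, a log2 ratio of -0.07 (-0.15 to 0.02). The secreted targets were low: the vessel growth factor Vegfa was at 3.28 and 3.38 CPM, in 3.003% and 2.99% of cells, and the vasodilator peptide Adm had 9 medial and 7 lateral UMIs. Ndrg1, a classical hypoxia target, had 10 and 15. Free RNA gave 0.744 and 1.05 CPM for Adm and 0.496 and 1.31 CPM for Ndrg1, from 2 to 5 UMIs each, too few to compare with the cells.

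The other genes of these pathways were taken from 2 further lists. For comparison, 16.3% of all genes with at least 30 UMIs had an interval under a ratio of 1 and 10.5% over it. With at least 1000 UMIs the shares were 28.5% and 15.6%. Of 29 measured genes for glucose side branches and pyruvate, 7 had an interval under a ratio of 1 and 0 over it, with a median of -0.04. Mpc1, a subunit of the mitochondrial pyruvate carrier and the most abundant of them, was at 478 CPM medial and 583 CPM lateral, a log2 ratio of -0.29 (-0.32 to -0.25). Pdk3, like Pdk1 a brake on pyruvate dehydrogenase, was at 30.3 and 36.6 CPM, a log2 ratio of -0.27 (-0.42 to -0.13), and Ldhb, the lactate dehydrogenase form that favours pyruvate, at 332 and 336 CPM. Of 20 further hypoxia genes, 3 had an interval under a ratio of 1 and 4 over it, with a median of -0.07. Cited2, which competes with Hif1a for its coactivator, went the other way, with 101 CPM medial and 64.0 CPM lateral, a log2 ratio of 0.66 (0.56 to 0.75). Mif, a cytokine, was at 807 and 914 CPM, a log2 ratio of -0.18 (-0.21 to -0.15), and the mitochondrial protein Higd1a at 95.5 and 111 CPM, a log2 ratio of -0.22 (-0.30 to -0.14). The nuclear-encoded respiratory chain genes fixed for comparison had a summed log2 ratio of -0.05 (-0.06 to -0.04), nearer to 0 than the enzyme sum. Other lists used below moved as far or farther. Cell cycle (-0.26), disease-associated (-0.20) and homeostatic genes (-0.15) were lower in the medial library by their sums. Immediate early (0.35), MHC class II (0.34) and interferon-response genes (0.13) were higher.

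Nearly every cell carried glycolytic transcripts. With each cell thinned to 3869 UMIs, which left 2000 medial and 2077 lateral cells, the median cell devoted 0.491% of its UMIs to the enzymes in the medial library (quartiles 0.336% and 0.646%) and 0.543% in the lateral library (0.414% and 0.724%). The distributions overlapped over most of their width. Gapdh UMIs were present in 96.3% of thinned medial and 97.9% of thinned lateral cells, and Pkm in 93.8% and 96.0%, whereas Hk2 was seen in 26.5% and 24.0%. Before thinning the Hk2 shares were 50.8% and 46.2%. No other cell type was present to give the share of cells that free RNA alone produces. Most members were at about the same level in free RNA as in cells, and the free RNA was itself rich in microglial markers (122 and 121 of 10000 UMIs for the 7 markers). Relative to free RNA, Gapdh was 2.06 and 1.88 times as high in medial and lateral cells, Pgk1 1.74 and 1.32 times and Eno1 1.64 and 1.60 times.

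**Figure D4:**
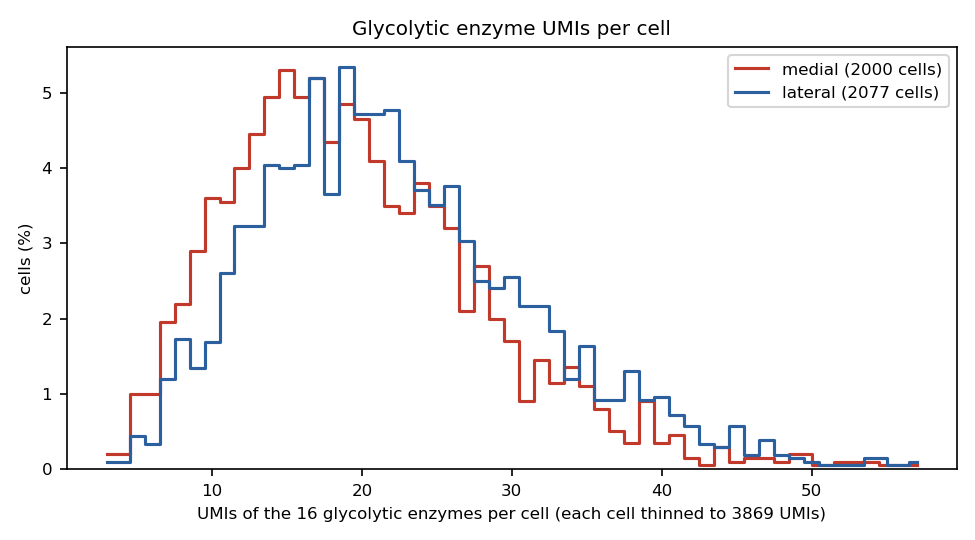
Glycolytic enzyme UMIs per cell after each cell was thinned to 3869 UMIs, as the percentage of the 2000 medial (red) and 2077 lateral (blue) cells. The curves overlap over most of their width, with the lateral curve shifted to the right (medians 0.543% against 0.491% of UMIs).

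Enzyme levels went up with the UMI content of a cell and hypoxia genes did not. From the shallowest to the deepest of 4 depth bins of cells, the enzyme sum went from 4249 to 6285 CPM in the medial and from 4755 to 7032 CPM in the lateral library. Hypoxia regulators and targets stayed between 626 and 659 CPM in the medial and between 667 and 733 CPM in the lateral library. With cells of both libraries put into 4 common bins of UMIs per cell, a split added after the data were seen, the enzyme sum was lower in the medial library in 4 of 4 bins, with log2 ratios of -0.18, -0.31, -0.19 and -0.21. The medial library was richer in immediate early transcripts, which tissue dissociation can induce (6656 against 5236 CPM for the 16 listed). Within 4 common bins of that share, from low to high, the enzyme ratios were -0.09, -0.16, -0.14 and -0.28. In cells with and without proliferation transcripts, meaning at least 3 UMIs from at least 2 listed cell cycle genes, the enzyme ratios were -0.16 and -0.19.

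The abundant enzymes from aldolase on were correlated with each other across cells, and Gpi1, of like abundance to Eno1 and Tpi1, hardly with them. These correlations are descriptions over thinned cells (2000 medial and 2077 lateral) that share a library and a depth. The strongest pair in both libraries was Pkm with Ldha, r = 0.35 medial and 0.32 lateral, and the next was Gapdh with Pkm, r = 0.34 and 0.30. Over the 21 pairs of Aldoa, Tpi1, Gapdh, Pgam1, Eno1, Pkm and Ldha, r ran from 0.07 to 0.35 in the medial and from 0.14 to 0.32 in the lateral cells. Gpi1 with these 7 enzymes gave -0.03 to 0.10 and -0.0082 to 0.07. Against the summed enzyme share, the lactate exporter Slc16a3 had r = 0.20 and 0.22 and Bnip3 0.10 and 0.13, while Hif1a had 0.06 and -0.00084 and Slc2a1 0.05 and 0.06. In sparse counts such low values do not show that genes vary apart.

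The members were then followed across states of the cells, each library taken apart. A state is here a range of a gene list's share of UMIs and not a cell type. Cells at or above the upper quartile are set against those at or below the lower quartile. Between 218 and 743 cells of a library lay within 10% of a cut, apart from MHC class II in the lateral library. There the count was 820, which includes the cells tied at the lower cut. In cells with proliferation transcripts (749 of 2131 medial and 809 of 2308 lateral, of which 198 and 181 had exactly 3 such UMIs), 9 of 15 measured enzymes were higher and 1 lower by whole interval in the medial library, and 7 higher and 2 lower in the lateral. Over all genes, 24.5% and 24.8% were higher and 8.93% and 9.84% lower. Here and for the states below, all genes are those with at least 30 UMIs in the cells compared. Many of the enzymes are far more abundant, which narrows their intervals. No share for abundant genes alone was computed for the states, so the counts and shares are not matched for abundance. Gapdh stood at 1566 against 1175 CPM in medial and 1835 against 1379 CPM in lateral cells, a log2 ratio of 0.41 in both. Ldha, with log2 ratios of 0.37 and 0.32, and Eno1, with 0.37 and 0.41, went the same way. Pfkfb3 went the other way, at 52.4 against 72.5 CPM and 53.2 against 69.7 CPM, log2 ratios -0.47 (-0.62 to -0.31) and -0.39 (-0.55 to -0.23). Hif1a (-0.09 and -0.11), Bnip3 (-0.17 and -0.34) and Bnip3l (-0.16 and -0.24) were also lower in those cells. Cells with proliferation transcripts were deeper, with medians of 13435 against 9478.5 and 11939 against 8648 UMIs. Within 4 bins of UMIs per cell, again a split added after the data were seen, the enzyme sum kept its direction in 4 of 4 bins of both libraries, with log2 ratios from 0.08 to 0.28 medial and 0.03 to 0.23 lateral, and Pfkfb3 ran from -0.52 to -0.26 and from -0.81 to -0.02. Hif1a did not keep its direction there, with -0.19 to 0.06 and -0.27 to 0.0068, and in the medial library neither did Bnip3l, with -0.34 to 0.05, nor Eno1, with -0.02 to 0.46. Bnip3 did in both, with -0.67 to -0.12 and -0.77 to -0.17.

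**Figure D5:**
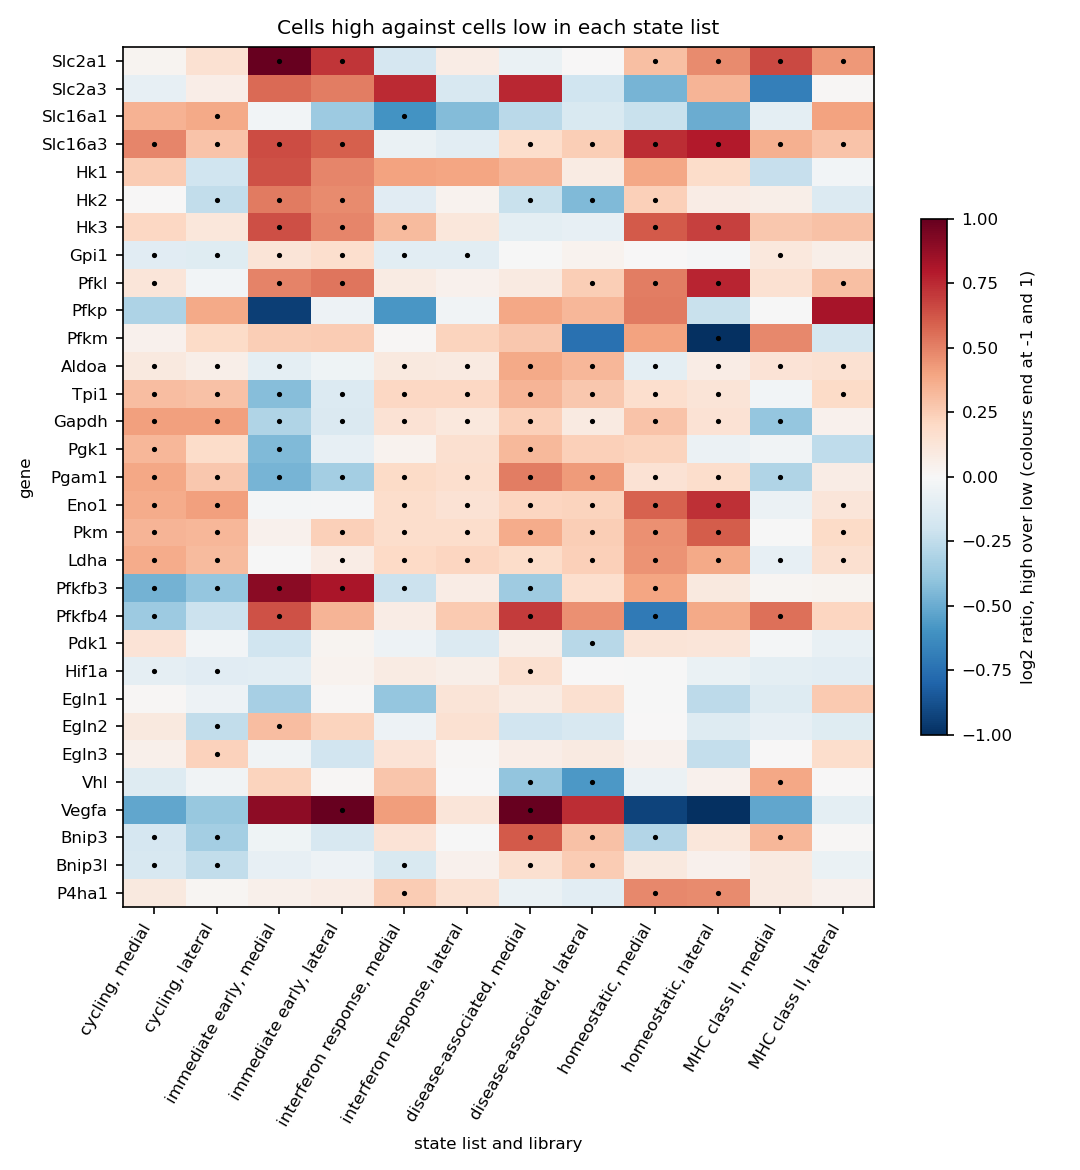
Log2 ratio of cells high against cells low in each state list, for the 31 measured genes (rows) in each library (columns). Red is higher in the high cells, blue lower, colours end at -1 and 1, and a dot marks a 95% counting interval that does not hold 0. In immediate early high cells Slc2a1, Slc16a3, Hk2, Hk3, Pfkl and Pfkfb3 are red in both libraries, while Tpi1, Gapdh and Pgam1 are blue.

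In cells high in immediate early genes, members differed in both directions. Slc2a1 was at 87.2 against 42.8 CPM in medial and 77.3 against 47.2 CPM in lateral cells, log2 ratios 1.03 (0.80 to 1.25) and 0.71 (0.49 to 0.93). Pfkfb3 was at 81.2 against 43.4 CPM and 81.7 against 46.5 CPM, log2 ratios 0.91 (0.68 to 1.13) and 0.81 (0.59 to 1.03). Hk2, with 0.52 and 0.47, Hk3, with 0.64 and 0.49, Pfkl, with 0.49 and 0.54, and Slc16a3, with 0.66 and 0.60, were higher as well, and Gpi1 was with 0.13 and 0.17. The intervals of Hk1, Pfkm, Pfkp, Slc2a3 and Slc16a1 held 0 in both libraries. Pgam1 was lower, at 246 against 340 CPM and 287 against 364 CPM, log2 ratios -0.47 and -0.34, as were Tpi1 (-0.42 and -0.13) and Gapdh (-0.30 and -0.14). The summed nuclear respiratory chain genes were lower in the same cells, with -0.30 and -0.24, 0 of 16 higher and 10 of 16 lower in each library, and the part of this in the enzyme values was not tested. Slc2a1, Pfkfb3, Hk2, Hk3, Pfkl, Slc16a3, Pgam1, Tpi1 and Gapdh kept their direction in 4 of 4 bins of UMIs per cell in both libraries. Eno1 had -0.02 and -0.01, Ldha -0.0045 and 0.07, and Pkm 0.04 and 0.23. The enzyme sum itself was -0.10 in medial and 0.02 in lateral cells (-0.01 to 0.04), with 4 of 13 enzymes higher and 5 lower in the medial and 6 of 14 higher and 3 lower in the lateral library. Over all genes, 18.3% and 17.8% were higher and 17.3% and 14.9% lower. The hypoxia regulators and targets summed to -0.02 and 0.01, both with intervals that held 0, and Hif1a to -0.11 and 0.04.

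Cells high in homeostatic microglial genes such as P2ry12 and Tmem119 were also high in part of the pathway. Both libraries come from treated mice, so this range does not stand for undamaged brain. Slc16a3 was at 135 against 80.7 CPM in medial and 163 against 94.3 CPM in lateral cells, log2 ratios 0.74 (0.56 to 0.91) and 0.79 (0.63 to 0.95). Eno1 was at 324 against 215 CPM and 415 against 250.4 CPM, log2 ratios 0.59 and 0.73, and Pkm followed with 0.46 and 0.60. Hk3 (0.62 and 0.68), Pfkl (0.51 and 0.76) and P4ha1 (0.48 and 0.47) were higher too. In all, 9 of 14 enzymes were higher and 1 lower in each library, beside 19.5% and 16.3% of all genes higher and 9.55% and 14.6% lower. The deeper cells were again those in the high range, with 10671 against 9368 and 10168 against 8793 UMIs. The summed immediate early genes were higher in these cells too, with 0.21 and 0.29, 9 and 10 of 15 of them by whole interval, and their part in the members' values was not tested. Slc16a3, Eno1, Pkm, Hk3 and Pfkl kept their direction in 4 of 4 bins of UMIs per cell in both libraries.

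Cells high in disease-associated genes such as Spp1, Gpnmb and Lpl had enzyme sums above 0, as the homeostatic range did. The log2 ratios were 0.27 (medial) and 0.20 (lateral), beside 0.26 and 0.29 there. Pkm was higher in both states, here from 0.10 to 0.59 and from 0.09 to 0.35 within 4 bins of UMIs per cell. Some other members differed from the homeostatic range. Pgam1 was at 340 against 239 CPM in medial and 370.4 against 276 CPM in lateral cells, log2 ratios 0.51 (0.41 to 0.61) and 0.43 (0.33 to 0.52), and Aldoa at 933 against 719 CPM and 1012 against 806 CPM, log2 ratios 0.38 and 0.33. Bnip3 was at 66.1 against 43.1 CPM and 65.7 against 53.5 CPM, log2 ratios 0.62 (0.38 to 0.86) and 0.30 (0.07 to 0.52). Hk2 was lower, with -0.22 and -0.44, and so was Vhl, with -0.39 (-0.73 to -0.06) and -0.58 (-0.89 to -0.26). In both libraries 8 of 14 enzymes were higher and 1 lower, beside 7.92% and 6.5% of all genes higher and 22.8% and 27.9% lower, and the median of all genes was -0.13 and -0.17. Medians of UMIs per cell were 11806 against 9338 and 10966 against 8567. Within 4 bins of UMIs per cell Pgam1 and Aldoa kept their direction in both libraries, while Bnip3 ran from 0.32 to 0.80 (medial) and from -0.04 to 0.45 (lateral), and Vhl from -0.91 to -0.15 and from -0.89 to 0.15. Hk2 ran from -0.58 to 0.014 and from -0.70 to -0.29. The summed immediate early genes were lower in these cells, with -0.50 and -0.26, and their part in these values was not tested.

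Interferon-response and MHC class II ranges were compared in the same way. With interferon genes high, Ldha had log2 ratios of 0.20 and 0.21 and Tpi1 of 0.21 and 0.21, and Gpi1 was lower with -0.11 in both. In total 8 of 14 medial and 7 of 14 lateral enzymes were higher and 1 lower in each, beside 7.68% and 6.49% of all genes higher and 7.42% and 7.75% lower. The enzyme sum, 0.14 and 0.13, was 0.08 and 0.05 with cells thinned to 1 depth. Cells in the high range were deeper, with medians of 11132 against 9939 (medial) and 9931 against 8421 UMIs (lateral). Within 4 bins of UMIs per cell the enzyme sum ran from 0.05 to 0.11 and from -0.05 to 0.13. Ldha ran from 0.10 to 0.16 and from -0.01 to 0.27 there, and Tpi1 from 0.07 to 0.26 and from 0.03 to 0.23. The enzyme sum and Ldha thus did not keep their direction in the lateral library. With MHC class II genes high, Slc2a1 was at 77.9 against 49.3 CPM in medial and 66.8 against 49.4 CPM in lateral cells, log2 ratios 0.66 (0.43 to 0.89) and 0.44 (0.20 to 0.67), and the summed immediate early genes were higher there too, with 0.69 and 0.49. Of 13 medial enzymes 2 were higher and 3 lower, beside 8.74% and 17.5% of all genes, and of 14 lateral enzymes 6 were higher and 0 lower, beside 6.95% and 10.7%. The part of immediate early transcripts in the Slc2a1 difference was not tested.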

How the data were processed

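Counts of UMIs per gene and barcode were deposited as whole numbers for 27998 genes and 737280 barcodes per library. The tools named in the submitters' processing notes are Cell Ranger (2.0.1) and STAR, with the build mm10, and no source used here names the gene annotation. Other columns deposited by the authors hold gene names and barcodes and carry no score. Gene IDs were summed by symbol, which merged 56 symbols and no member. Library totals were 28660496 (medial) and 27955414 (lateral) UMIs. Cells were barcodes with at least 2400 UMIs and at most 10% mitochondrial UMIs. No doublet caller was run; an alternative leaves out the top 2% of UMI totals.

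UMIs were summed over the cells of a library and scaled to its total. Levels have exact Poisson, shares exact Clopper-Pearson and ratios exact conditional binomial 95% intervals, computed in Python 3.11.15 with SciPy 1.17.1 and tested on simulated data. PCR duplicates are removed by UMIs, and intervals cover counting error only. Shared windows were taken from GENCODE M21 transcripts (GRCm38). All 34 members are named. From each of the other pathway lists came the 2 genes with the interval bound farthest from a ratio of 1 on each side and the 2 with most UMIs. A microglial marker and a gene that this rule names are not reported here. The members and lists were chosen with earlier results of these data known.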

Additional observations from a re-analysis of the deposited data

Results flagged for a closer look

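Cells high against cells low in MHC class II genes gave enzyme sums on opposite sides in the libraries, with log2 ratios of -0.089 (-0.11 to -0.06) in the medial and 0.12 (0.10 to 0.14) in the lateral library. Ldha did the same, at -0.084 and 0.16. The difference between the libraries was not tested. In the lateral library the low range held 693 cells and the high range 577, because all cells tied at the lower cut were counted low. In the medial library both ranges held 533 cells, so the low ranges were not cut alike. The lateral low range had a median of 6688 UMIs against 9794 in the high range, while the medial medians were 9471 and 9632. Within 4 bins of UMIs per cell the lateral enzyme sum ran from -0.06 to 0.09 and the medial from -0.28 to 0.03. With cells thinned to 1 depth the sums were 0.022 (lateral) and -0.067 (medial). Across all thinned cells, the MHC class II and enzyme shares had r = -0.087 (lateral) and -0.092 (medial). These correlations had the same sign, unlike the sums.

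For cells high in homeostatic genes, Aldoa was at 814 against 873 CPM in the medial and 964 against 915 CPM in the lateral library, log2 ratios -0.10 (-0.16 to -0.04) and 0.076 (0.02 to 0.13). That difference was not tested either. Within 4 bins of UMIs per cell Aldoa ran from -0.24 to -0.13 in the medial and from -0.17 to 0.28 in the lateral library.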

How the results depend on the processing

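The enzyme sum, the enzyme median and the median of hypoxia regulators and targets stayed below 0 under every alternative run. Centring on the median gene, which shifts all log2 ratios by 0.04, gave -0.14 for the enzyme sum and -0.10 for the enzyme median, and left 2 hypoxia genes with an interval below a ratio of 1. With cells thinned to 1 depth that count was 2 as well, with fewer UMIs behind it. Without cells with proliferation transcripts the enzyme median was -0.19, and without cells above the upper quartile of immediate early share the enzyme sum was -0.15. Without Gapdh it was -0.16, and also -0.16 without Pgk1, Eno1 and Gapdh, both added after the data were seen. The other 74 values of these summaries moved by less than their counting interval or, for counts, by less than 1.5 times. Of 31 single members 11 changed sign under at least 1 alternative. In 10 of them the interval already held a ratio of 1, and the other, Bnip3l, turned to 0.0086 with cells thinned to 1 depth. Pgk1 stayed between 0.81 and 0.99 and Egln3 between -0.51 and -0.36 over 11 alternatives. No paired analysis was possible because each region has 1 library. Depth limits Slc2a3, Hk1, Pfkp, Pfkm, Vegfa and Pfkfb4, whose intervals are wide.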
